A study of Homo sapiens with 6 samples.

Results

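The genes described here are the nuclear genes with an NDUF symbol, which encode the nuclear subunits of mitochondrial complex I and part of the machinery that assembles it. Members were the genes of the deposited table of C4-2 cells whose Ensembl identifier belonged to a protein-coding gene with a symbol starting with NDUF and whose mean over the 6 libraries was at least 10 normalised counts. That rule gave 47 of 14456 genes, and none was lost to the minimum, since the member means ran from 178 to 7947. They comprised 7 core subunits, 30 accessory subunits, 8 NDUFAF assembly factors, and NDUFA4 and NDUFA4L2, which carry the symbol but are not counted as complex I subunits. C4-2 is a castration-resistant prostate cancer line derived from LNCaP, labelled epithelial-like. It was grown in RPMI with 10% fetal bovine serum, and polyadenylated RNA was sequenced after 6 days with the fatty acid synthase inhibitor IPI-9119 at 100 nM (3 libraries), or with 0.1% DMSO, its solvent (3 libraries). All libraries come from that 1 line, so the groups differ by the treatment alone as far as the labels tell. The comparison asked how inhibition of fatty acid synthase changed the RNA of these genes.

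Complex I takes electrons from NADH, passes them along a chain of iron-sulfur clusters to ubiquinone and pumps protons across the inner mitochondrial membrane. The core subunits carry out this chemistry, and some of them are encoded in mitochondrial DNA. The accessory subunits surround the core and are needed for its assembly or stability, and the assembly factors help to build the complex but are absent from the finished enzyme. The complex is described in modules, the N module that binds NADH, the Q module that reduces ubiquinone, and the proximal and distal parts of the membrane arm.

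The proximal promoters of the members at both ends of the response are shown first, since the later comparison of promoter motifs turns on them. They are RefSeq sequences on GRCh38.p14, plus strand, from 250 bases before to 30 bases after the annotated start. The set holds the 3 members with the largest rise and the member with the largest fall among the 39 of 47 members found in the promoter table. NDUFAF8 (chr17:81239061-81239340), NDUFAF5 (chr20:13784778-13785057) and NDUFA1 (chrX:119871582-119871861) rose, and NDUFV3 (chr21:42893059-42893338) fell. Capitals mark a match, on either strand, to the NRF1 motif GCGCATG, the ETS motif CCGGAAG bound by GABP, the YY1 motif AAGATGG, the CCAAT box CCAAT or the TATA box TATAAA.
NDUFAF8: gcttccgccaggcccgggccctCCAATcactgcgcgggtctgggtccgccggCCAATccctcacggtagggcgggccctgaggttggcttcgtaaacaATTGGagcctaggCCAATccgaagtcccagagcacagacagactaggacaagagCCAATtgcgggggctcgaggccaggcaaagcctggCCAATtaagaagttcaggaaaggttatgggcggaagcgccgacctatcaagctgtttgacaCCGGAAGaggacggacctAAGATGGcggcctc
NDUFAF5: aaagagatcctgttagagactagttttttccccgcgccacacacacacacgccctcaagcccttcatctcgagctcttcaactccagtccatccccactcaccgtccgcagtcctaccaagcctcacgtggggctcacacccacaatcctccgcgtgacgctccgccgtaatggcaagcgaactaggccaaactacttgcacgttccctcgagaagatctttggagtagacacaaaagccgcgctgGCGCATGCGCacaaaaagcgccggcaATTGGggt
NDUFA1: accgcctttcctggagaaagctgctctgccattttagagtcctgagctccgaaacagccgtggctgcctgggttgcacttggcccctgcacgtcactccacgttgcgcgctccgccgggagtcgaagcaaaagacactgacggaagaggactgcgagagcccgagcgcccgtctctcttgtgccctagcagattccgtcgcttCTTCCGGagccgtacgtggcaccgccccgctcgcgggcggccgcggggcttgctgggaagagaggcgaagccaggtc
NDUFV3: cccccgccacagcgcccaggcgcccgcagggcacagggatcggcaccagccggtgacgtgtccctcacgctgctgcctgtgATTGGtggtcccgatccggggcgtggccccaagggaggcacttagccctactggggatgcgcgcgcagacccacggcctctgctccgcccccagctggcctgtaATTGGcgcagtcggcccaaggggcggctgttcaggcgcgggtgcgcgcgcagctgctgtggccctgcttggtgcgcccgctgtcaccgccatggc

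The NDUFAF8 window held CCAAT at 6 places, 1 ETS match and 1 YY1 match, the NDUFAF5 window 2 overlapping NRF1 matches and 1 CCAAT box, the NDUFA1 window 1 ETS match and the NDUFV3 window 2 CCAAT boxes. A match is a run of letters and not a measured binding site, and the NRF1 and YY1 letters are short forms chosen after longer ones had been searched. The RefSeq starts lay 72, 78, 345 and 41 nt, in that order, from the start of the principal transcript in GENCODE 29.

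The libraries held 19090749 to 23448035 reads, recovered from the deposited values. All 10 luminal prostate markers fixed as a list were measured. Of these, 1 was higher (FOLH1, against 31.3% of all genes tested), 8 were lower (31.4%) and 1 was not past the threshold. KLK3 fell by 0.95 on the log2 scale. None of 3 basal and 4 leukocyte markers was among the genes tested, and the endothelial and fibroblast lists had 1 of 3 and 2 of 4 tested genes, none past the threshold. The labels name no batch, so a batch and the treatment cannot be told apart, and they do not call the replicates separate cultures, so the p-values reflect a spread among these libraries that may be technical alone. In such bulk libraries, fewer cells of a type and less RNA per cell cannot be told apart. For the NDUF members, IPI-9119 replicate 1 was the highest IPI-9119 library in 41 of 47 (87.2%, against 36.6% of all genes tested) and DMSO replicate 2 the lowest DMSO library in 34 of 47 (72.3%, against 32.8%). Without IPI-9119 replicate 1, 32 members were higher and 3 lower with a median log2 fold change of 0.26. Without DMSO replicate 2, 31 were higher and 3 lower, with a median of 0.32. With all 6 libraries 31.3% of all genes tested were higher and 31.4% lower.

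NDUF genes were mostly higher in the IPI-9119 libraries, by modest amounts. Of the 47 members, 32 were higher (limma, Benjamini-Hochberg adjusted p under 0.05), against 31.3% of all 14437 genes tested, and 3 were lower, against 31.4%; 35 passed in either direction, against 62.8%. The other 12 were not past the threshold. The median log2 fold change (IPI-9119 over DMSO, on log2(normalised count + 1)) was 0.34 over the members, an increase of 26.8%, and 0.0017 over all genes tested. All 3 IPI-9119 libraries lay above all 3 DMSO libraries for 35 members, against 34.0% of genes tested, and below them for 3, against 33.9% (67.9% for either direction). The assembly factor gene NDUFAF8 rose most, by a log2 fold change of 1.05, and NDUFA4L2 fell most (log2 fold change -1.16).

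**Figure D1:**
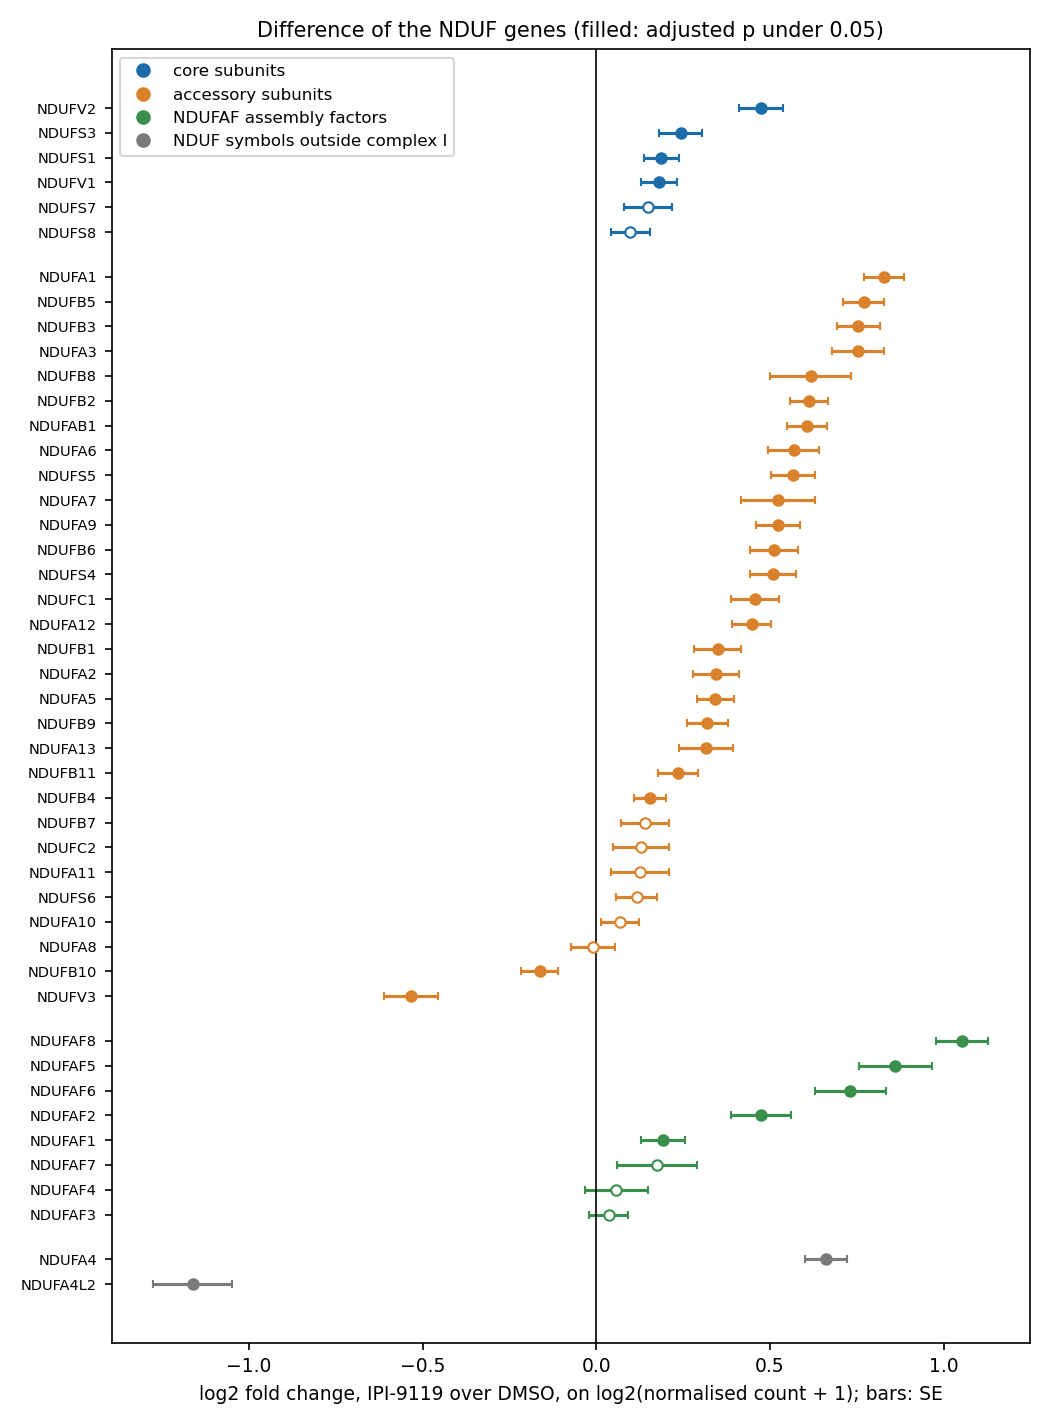
Log2 fold change of the NDUF genes, IPI-9119 over DMSO (horizontal axis, on log2(normalised count + 1)), with bars giving the SE and filled points an adjusted p under 0.05 (limma, n = 3 libraries per group). Among accessory subunits 22 of 30 points are filled to the right of 0 and 2 to the left, and NDUFA4L2 lies at -1.16.

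Of the 7 nuclear core subunits, 4 were higher (31.3% of all genes tested), 0 lower (31.4%) and 3 not past the threshold. Their median log2 fold change was 0.18. NDUFV2, an iron-sulfur subunit of the N module (ENSG00000178127, chromosome 18, 9102630 to 9134345, plus strand, GRCh38, GENCODE 29), held 1691, 1608 and 1599.9 normalised counts with DMSO and 2462, 2071 and 2289.8 with IPI-9119. All IPI-9119 libraries were above all DMSO libraries, and the means were 1633 ± 50.5 and 2274 ± 196 (SD, n = 3; log2 fold change 0.47, SE 0.06, adjusted p 1.7e-05). NDUFV1, which binds FMN and oxidises NADH, held 2803, 2604 and 2686 with DMSO and 3194, 3057 and 2927 with IPI-9119 (log2 fold change 0.18, SE 0.05, adjusted p 0.00743). NDUFS1, the largest core subunit and carrier of several iron-sulfur clusters, held 3039, 2963 and 3242 with DMSO and 3525, 3406 and 3589.7 with IPI-9119 (log2 fold change 0.19, SE 0.05, adjusted p 0.00498). The groups did not overlap for either gene, and both rises were small (1.13-fold and 1.14-fold).

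Of the core subunits of the Q module, NDUFS3 passed the threshold. NDUFS3, a structural core protein of this module, held 1902, 1806 and 1843 normalised counts with DMSO and 2409, 2072 and 2102 with IPI-9119 (log2 fold change 0.24, SE 0.06, adjusted p 0.00355). Its groups did not overlap, and IPI-9119 replicate 1 was the highest library. NDUFS7, which carries the last iron-sulfur cluster before ubiquinone, held 855, 772 and 838 with DMSO and 946, 867 and 919 with IPI-9119 (log2 fold change 0.15, SE 0.07, adjusted p 0.0707). NDUFS8, another iron-sulfur subunit, held 1596, 1570.1 and 1642 and 1824, 1667 and 1661 (log2 fold change 0.10, SE 0.06, adjusted p 0.145). For both genes all IPI-9119 libraries lay above all DMSO libraries, but neither passed the threshold.

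Accessory subunits were higher for 22 of 30 genes (31.3% of all genes tested) and lower for 2 (31.4%), and 6 did not pass the threshold. Their median log2 fold change was 0.40. NDUFA1, a small membrane protein of the proximal arm (ENSG00000125356, chromosome X, 119871487 to 119876662, plus strand), held 2295, 2321 and 2171 normalised counts with DMSO and 4352, 3845 and 3879 with IPI-9119. The groups stood well apart, with means of 2263 ± 80.2 and 4025 ± 283 (SD, n = 3), a 1.78-fold rise (log2 fold change 0.83, SE 0.06, adjusted p 2.0e-08). In the distal arm, NDUFB5 held 3548, 3138 and 3504 with DMSO and 6183, 5706 and 5481 with IPI-9119 (log2 fold change 0.77, SE 0.06, adjusted p 6.8e-08). NDUFB3, of the same arm, held 990.3, 936 and 1019.5 and 1713, 1704 and 1557 (log2 fold change 0.75, SE 0.06, adjusted p 1.3e-07). NDUFA3, in the proximal arm, held 749.9, 673 and 639 and 1207, 1186 and 1081 (log2 fold change 0.75, SE 0.07, adjusted p 8.9e-07). In all 3 genes every IPI-9119 library exceeded every DMSO library by more than the range within either group.

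NDUFAB1 encodes the mitochondrial acyl carrier protein, which holds the growing chain in mitochondrial fatty acid synthesis and is also a subunit of complex I. It held 3272, 3222 and 3367 normalised counts with DMSO and 5476, 4685 and 4894 with IPI-9119 (log2 fold change 0.61, SE 0.06, adjusted p 5.1e-07). NDUFA6, the subunit of the Q module that anchors this carrier protein, held 1584, 1434 and 1586 with DMSO and 2579.7, 2169.5 and 2098 with IPI-9119 (log2 fold change 0.57, SE 0.07, adjusted p 1.3e-05). Neither gene's groups overlapped. NDUFB2, of the distal arm, was among the tightest in the DMSO libraries (2789.6, 2749 and 2759) and held 4570.1, 3967 and 4175 with IPI-9119 (log2 fold change 0.61, SE 0.05, adjusted p 3.0e-07). NDUFB8, also of the distal arm and among the less abundant subunits, held 375, 281 and 314 with DMSO and 571, 461 and 454 with IPI-9119 (log2 fold change 0.62, SE 0.12, adjusted p 3.8e-04). Its DMSO libraries were spread more widely, but the highest stayed under the lowest IPI-9119 library.

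A further 14 accessory subunits passed the threshold with rises between 0.15 and 0.57 on the log2 scale. They included NDUFS5 (0.57), a cysteine-rich protein on the intermembrane space side, NDUFA9 (0.52), a nucleotide-binding protein at the junction of the arms, and NDUFS4 (0.51), an N module subunit often mutated in Leigh syndrome. NDUFA7 (0.52), NDUFB6 (0.51), NDUFC1 (0.46) and NDUFA12 (0.45) rose by similar amounts. NDUFB1 (0.35), NDUFA2 (0.35), NDUFA5 (0.34), NDUFB9 (0.32) and NDUFA13 (0.32), first described as a regulator of cell death, rose less. NDUFB11 (0.24) and NDUFB4 (0.15) rose least.

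Only NDUFV3 and NDUFB10 fell among the accessory subunits. NDUFV3, an N module subunit made in a short and a long isoform (ENSG00000160194, chromosome 21, 42879644 to 42913304, plus strand), held 755, 808 and 693 normalised counts with DMSO and 501, 544 and 510.3 with IPI-9119. Every IPI-9119 library was below every DMSO library, with means of 752 ± 57.2 and 518 ± 22.9 (SD, n = 3; log2 fold change -0.53, SE 0.08, adjusted p 3.8e-05). NDUFB10, a cysteine-rich protein of the distal arm (ENSG00000140990, chromosome 16, 1959508 to 1961975, plus strand), held 3781, 3463 and 3749 with DMSO and 3455, 3201 and 3162 with IPI-9119 (log2 fold change -0.16, SE 0.05, adjusted p 0.0163). Its groups did not overlap, but the highest IPI-9119 library and the lowest DMSO library nearly met. The call for NDUFB10 was lost without DMSO replicate 1 (adjusted p 0.0718) or 3 (0.0678), and without IPI-9119 replicate 2 (0.0680) or 3 (0.0691).

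The 6 accessory subunits not past the threshold were in both arms. NDUFB7 held 1882, 1680.5 and 1813 normalised counts with DMSO and 2183, 1861 and 1888 with IPI-9119 (log2 fold change 0.14, SE 0.07, adjusted p 0.0873). NDUFC2, a membrane protein of the proximal arm, held 1078, 930.4 and 1012 and 1239.8, 1034 and 1037 (log2 fold change 0.13, SE 0.08, adjusted p 0.176). NDUFA11, of the same arm, held 1351, 1137 and 1329 and 1540.2, 1373 and 1255 (log2 fold change 0.13, SE 0.08, adjusted p 0.2). In these 3 genes the groups overlapped, and IPI-9119 replicate 1 was the highest library. NDUFS6, a zinc-binding N module subunit, held 1991, 1834 and 1905 and 2199, 2078 and 1939 (log2 fold change 0.12, SE 0.06, adjusted p 0.101; without IPI-9119 replicate 3, 0.16 and adjusted p 0.0395). NDUFA10, a relative of the nucleoside kinases, held 1537, 1519 and 1515 and 1675, 1558 and 1563 (log2 fold change 0.07, SE 0.05, adjusted p 0.291). NDUFA8, a cysteine-rich protein of the proximal arm, held 1866, 1809 and 1799 and 2003, 1694 and 1758 (log2 fold change -0.01, SE 0.06, adjusted p 0.912). NDUFA10 was the 1 of these whose groups did not overlap, and NDUFA8 had the same mean in both groups within its SD.

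**Figure D2:**
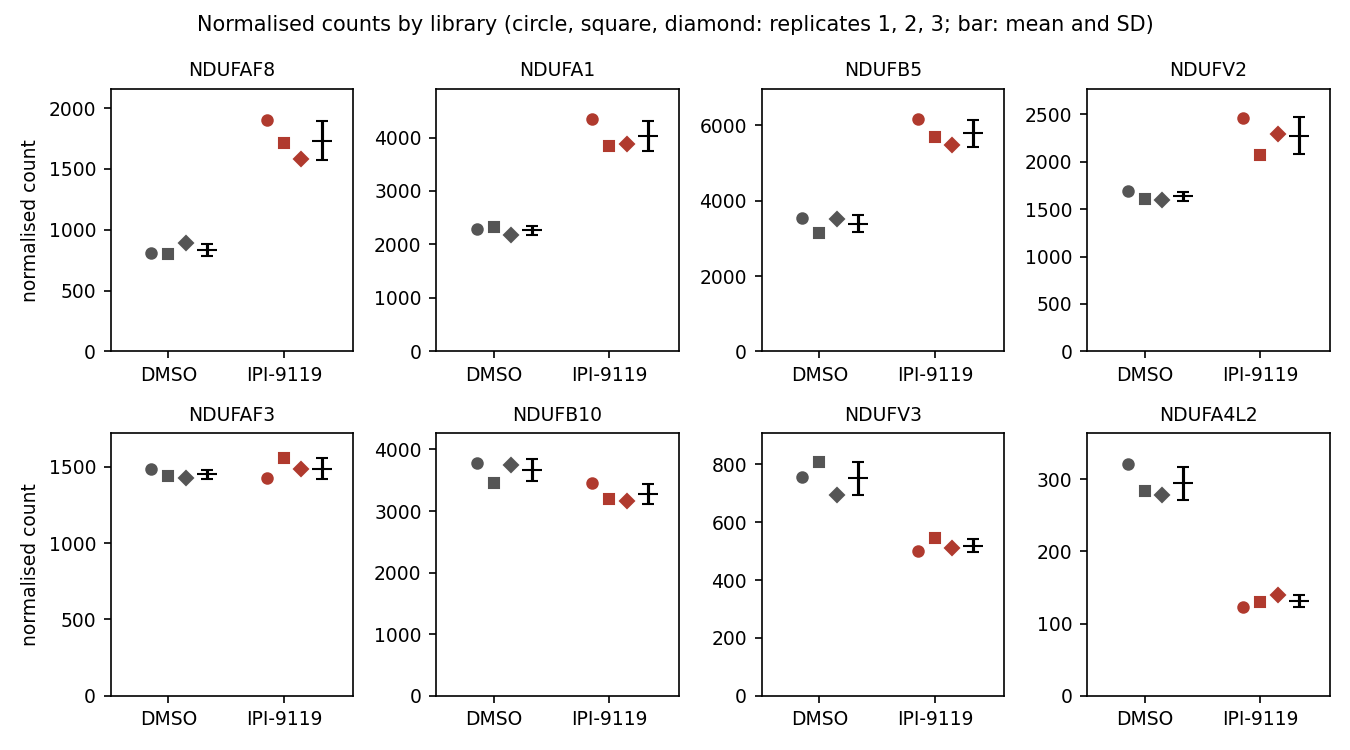
Normalised counts of 8 NDUF genes in each library (circle, square and diamond for replicates 1, 2 and 3; black bars give the mean and SD, n = 3). The IPI-9119 libraries lie above all DMSO libraries for NDUFAF8, NDUFA1, NDUFB5 and NDUFV2, below them for NDUFB10, NDUFV3 and NDUFA4L2, and overlap them for NDUFAF3.

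The 8 NDUFAF assembly factors had log2 fold changes from 0.04 to 1.05. Of these, 5 were higher (31.3% of all genes tested), 0 lower (31.4%) and 3 not past the threshold, with a median of 0.33. NDUFAF8, which stabilises NDUFAF5 (ENSG00000224877, chromosome 17, 81239239 to 81241281, plus strand), held 807, 799 and 894 normalised counts with DMSO and 1905, 1716 and 1580.4 with IPI-9119. The lowest IPI-9119 library was far above the highest DMSO library, and the means rose 2.08-fold, from 833 ± 52.4 to 1734 ± 163 (SD, n = 3; log2 fold change 1.05, SE 0.07, adjusted p 2.8e-08). NDUFAF5, which hydroxylates an arginine of NDUFS7 (ENSG00000101247, chromosome 20, 13784950 to 13821582, plus strand), held 174, 159 and 183 with DMSO and 334, 305 and 299 with IPI-9119 (log2 fold change 0.86, SE 0.11, adjusted p 7.6e-06). NDUFAF6, needed early in assembly around MT-ND1, held 282, 267 and 329 and 529, 484 and 444 (log2 fold change 0.73, SE 0.10, adjusted p 2.5e-05). Neither of these genes had overlapping groups.

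NDUFAF2, a relative of NDUFA12 that acts when the N module joins, held 913, 755 and 798 normalised counts with DMSO and 1272, 1038 and 1119.6 with IPI-9119 (log2 fold change 0.48, SE 0.09, adjusted p 2.6e-04). NDUFAF1, part of the complex that assembles the membrane arm, held 1006, 911 and 922 and 1123, 1050.4 and 1069 (log2 fold change 0.19, SE 0.06, adjusted p 0.0179). The groups of both genes were apart, though the call for NDUFAF1 was lost without DMSO replicate 2 (adjusted p 0.0745) or 3 (0.0655). NDUFAF7, a protein arginine methyltransferase, held 178, 159 and 166 and 201, 189.8 and 177 (log2 fold change 0.18, SE 0.12, adjusted p 0.201). NDUFAF4 held 601, 555 and 679 and 691, 586 and 631 (log2 fold change 0.06, SE 0.09, adjusted p 0.59). NDUFAF3, its partner in assembly of the Q module, held 1486, 1438 and 1430 and 1425, 1558 and 1485 (log2 fold change 0.04, SE 0.06, adjusted p 0.589). For these last 3 genes the groups overlapped.

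The members outside complex I moved in opposite directions. NDUFA4, a subunit of cytochrome c oxidase, was the more abundant of them and held 6221, 5837 and 6394 normalised counts with DMSO and 10652, 9004 and 9573 with IPI-9119 (log2 fold change 0.66, SE 0.06, adjusted p 3.4e-07). NDUFA4L2, its paralog and a known target of the hypoxia-inducible factor (ENSG00000185633, chromosome 12, 57234903 to 57240715, minus strand), held 321, 284 and 278 with DMSO and 123, 129.8 and 139.7 with IPI-9119. The groups of both genes were fully separate, and NDUFA4L2 fell to 0.445 of its DMSO mean, from 294 ± 23.1 to 131 ± 8.22 (SD, n = 3; log2 fold change -1.16, SE 0.11, adjusted p 7.6e-07).

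Summed over each class, the share of all normalised counts went from 0.0731% ± 0.00137 to 0.0807% ± 0.00206 for the core subunits (SD, n = 3). For the accessory subunits it went from 0.295% ± 0.00858 to 0.3804% ± 0.0177, and for the NDUFAF genes from 0.0253% ± 0.00088 to 0.0334% ± 0.00123. The IPI-9119 libraries lay above all DMSO libraries for each of these sums. Each module held genes that rose, where 31.3% of all genes tested were higher and 31.4% lower. In the N module 6 of 8 subunits were higher and 1 lower (median 0.27), in the Q module 5 of 8 higher and 0 lower (0.29), in the proximal membrane arm 5 of 9 higher and 0 lower (0.32), and in the distal arm 9 of 11 higher and 1 lower (0.35). The difference between classes or modules was not tested, since their genes share the same 6 libraries.

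Levels of the members differed far more than their changes. Per kilobase of principal transcript, the DMSO means of the core subunits ran from 260.7 (NDUFS1) to 2026.0 (NDUFS8) normalised counts, with a median of 1755.9. Accessory subunits ran from 160.8 (NDUFV3) to 9322.7 (NDUFB4), with a median of 1872.3. NDUFAF genes were lower, from 31.1 (NDUFAF5) to 1355.0 (NDUFAF8), with a median of 451.3. With IPI-9119 these medians were 1687.1, 2369.7 and 505.0. The core medians of the groups belong to different genes, and no core subunit was called lower. NDUFV2, which gave the DMSO median of 1755.9, was at 2445.4 with IPI-9119. NDUFAF8 had the highest level per kilobase of its class with DMSO and also the largest rise, while NDUFAF5, with the next largest rise, had the lowest level. NDUFB4 and NDUFA5 have 12 annotated pseudogenes each in GENCODE 29, NDUFS5 has 6 and NDUFA3 has 5, and 19 members have at least 1, so reads of such genes may be shared with a copy.

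Transcript length differed between the members and the rest of the genes. The principal transcript had a median of 1039 nt over the members, from 528 nt (NDUFB1) to 11819 nt (NDUFS1), against 3190 nt over all genes tested, and 42 of 47 members were below that median. Across all genes, those with a short principal transcript tended to be higher with IPI-9119. Of genes with a principal transcript under 1500 nt, 51.3% were higher and 12.7% lower (median log2 fold change 0.23), and of those of 6000 nt or more, 22.8% were higher and 48.5% lower (median -0.22). The 32 members under 1500 nt had a median of 0.40, with 24 higher and 2 lower. Of 10 members of 1500 to under 3000 nt, 5 were higher and 0 lower (median 0.18), where all genes of that length gave 36.7% higher, 27.4% lower and a median of 0.07. Of the 3 members of 3000 to under 6000 nt, NDUFAF5 was higher, NDUFV3 lower and NDUFA10 not past the threshold, against 30% higher and 39.6% lower among all genes. NDUFA9 and NDUFS1, the 2 longest, were both higher. Between log2 fold change and log2 length, Pearson r was -0.16 and Spearman rho -0.18 over the 47 members, r -0.28 and rho -0.17 over the 37 core and accessory subunits, and r -0.22 and rho -0.24 over 12108 genes. By merged exonic length the trend over all genes was weaker (r -0.14, rho -0.17, 14386 genes). Of 1546 genes with merged exons under 1500 nt, 443 were higher and 211 lower (median 0.14). Among the 15 such members, 11 were higher and 1 lower (median 0.51). These are descriptions across genes measured in the same libraries, and genes are not independent replicates.

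**Figure D3:**
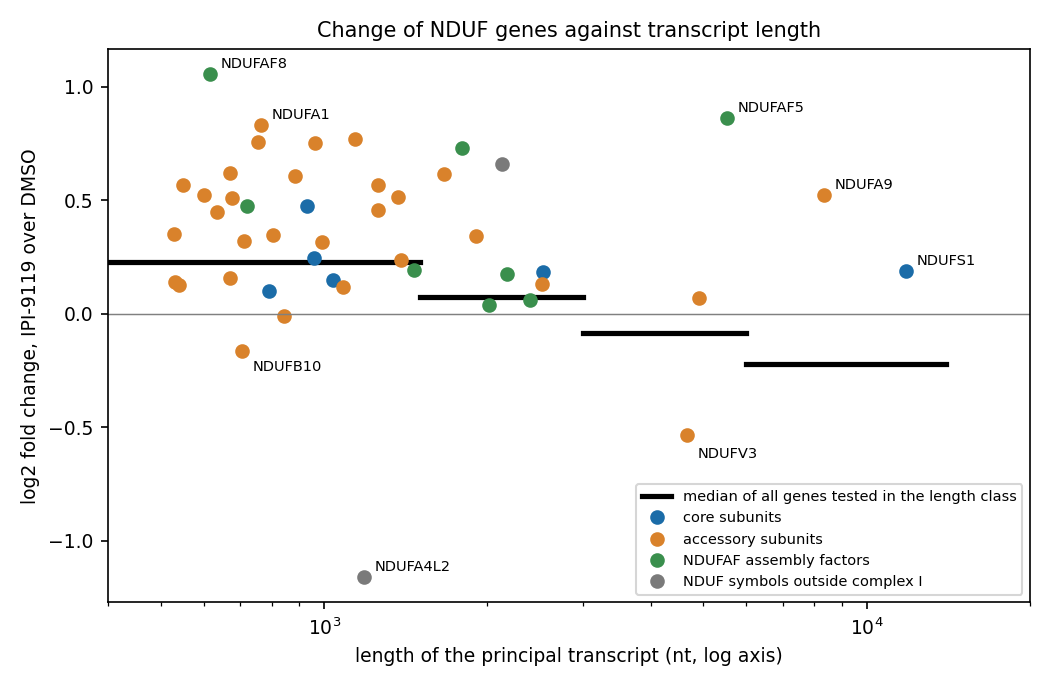
Log2 fold change of the NDUF genes, IPI-9119 over DMSO, against the length of its principal transcript (nt, log axis), with black lines for the median of all genes tested in each length class. Members under 1500 nt have a median of 0.40 where all genes of that length have 0.23. NDUFS1 and NDUFA9, with annotated principal transcripts of over 6000 nt, are higher.

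How many members were called depended on whether length and GC content were taken out, and on which length was used. With the merged exonic length, 31 members were higher (30.7% of the 14386 genes that have one) and 4 lower (34.1%). Their median was 0.27 against -0.03 over those genes. With the length and GC content of the principal transcript, 18 were higher (31.0% of the 12108 genes that have one) and 11 lower (39.5%). The members' median was then 0.09 against -0.07 over those genes. This correction was added after the data had been seen. Under the latter, 2 core subunits were higher and 2 lower, 11 accessory subunits were higher and 6 lower, and 4 NDUFAF genes were higher and 2 lower. In all 3 fits, 17 members were higher. They were NDUFS1 and NDUFV1 of the core, NDUFA1, NDUFA3, NDUFA6, NDUFA9, NDUFAB1, NDUFB2, NDUFB3, NDUFB5, NDUFB6, NDUFB8 and NDUFS5 of the accessory subunits, NDUFAF5, NDUFAF6 and NDUFAF8 of the assembly factors, and NDUFA4. NDUFV3, NDUFB10 and NDUFA4L2 were lower in all 3.

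The corrections moved single members by different amounts. NDUFAF8 was at 0.93 with the exonic and 0.76 with the principal correction, NDUFA1 at 0.71 and 0.50, and NDUFV2 at 0.21 and 0.11, where the latter did not pass the threshold. NDUFA9, whose principal transcript is 8363 nt long, was at 0.61 and 0.67, above its uncorrected value. NDUFS7 and NDUFA11 were the most dependent on the choice of length. NDUFS7 has 7533 nt of merged exons but a principal transcript of 1039 nt, and was at 0.83 (past the threshold) and 0.06 (not past). NDUFA11, with 4839 nt and 539 nt, was at 0.56 and -0.15, past the threshold in opposite directions. NDUFB4, higher without correction, was at -0.10 (not past) and -0.26 (past).

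**Figure D4:**
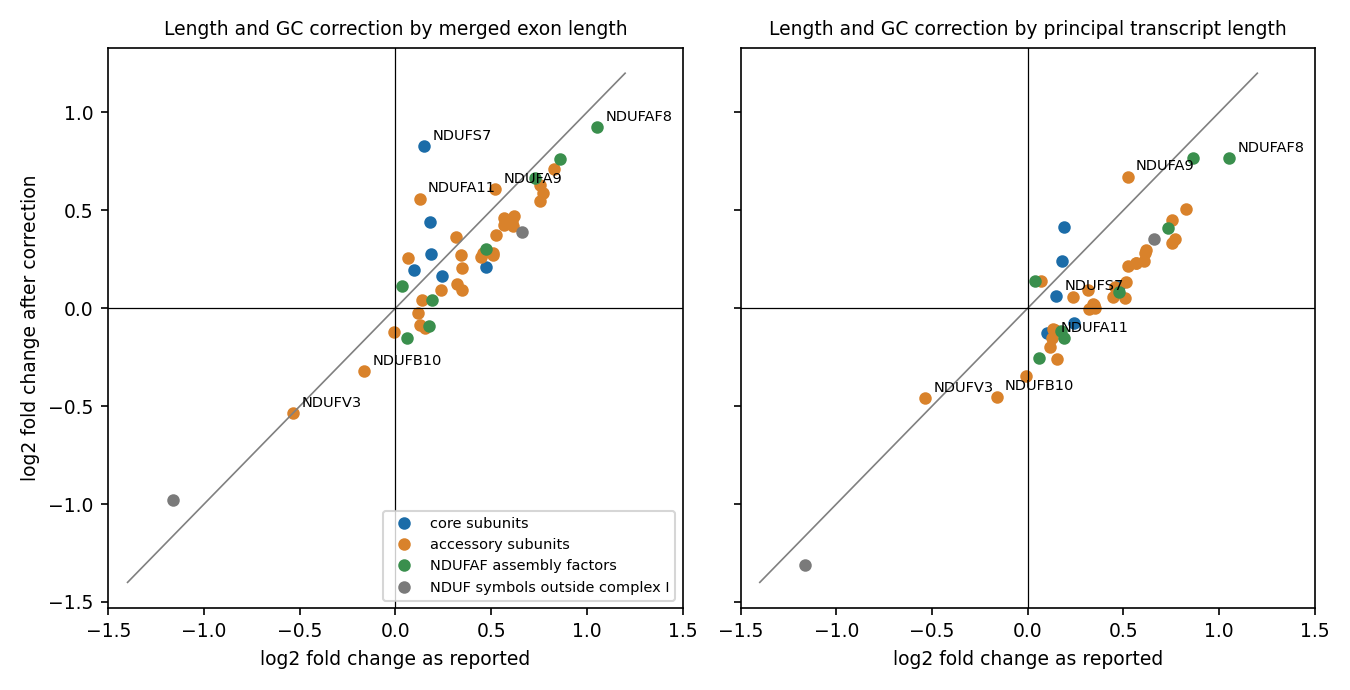
Log2 fold change of the NDUF genes after correction for length and GC content (vertical axes), by merged exonic length on the left and principal transcript length on the right, against the reported value (horizontal axes), with the line of equality. Most members lie below the line on the right, where the median is 0.09 against 0.34 as reported, and NDUFS7 and NDUFA11 lie far above it on the left only.

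Exons of 26 members overlap those of another annotated gene, 13 of them on the same strand and 21 on the opposite strand, some on both. The strand setting of the counting was not given in the sources used here, so reads of opposite genes may not be told apart. Among the 21 members without such an overlap, 13 were higher (31.3% of all genes tested) and 2 lower (31.4%). Their median was the same as that of all members (0.34). With the principal transcript correction 6 of the 21 were higher (31.0% of genes with that correction) and 8 lower (39.5%), with a median of 0.02. NDUFA1 shares 44.5% of its exonic length with RNF113A on the opposite strand, whose log2 fold change was -0.12 (adjusted p 0.201). NDUFB11 shares 44.9% with RBM10, which fell by 1.17, and NDUFB2 shares 27.9% with BRAF, which fell by 0.38, while both NDUF genes rose. NDUFS3 overlaps PTPMT1 on the same strand (19.7% of its length), which rose by 0.28, and CELF1 on the other (6.38%), which fell by 1.03. NDUFA4L2 overlaps SHMT2 by 33 nt (1.18%), and SHMT2 fell by 0.47 from a mean of 14398 normalised counts. The part of these overlaps in the values was not tested.

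Several members start head to head with another gene. Within 1000 nt, 9 members had such a partner in the table, and in 2 of these pairs both genes rose, NDUFB5 with MRPL47 (0.33, starts 36 nt apart) and NDUFAF2 with ERCC8 (0.39, 56 nt). In 3 pairs the genes moved in opposite directions. ESF1, 64 nt from NDUFAF5, fell by 0.72 (adjusted p 6.5e-05), and TEPSIN, 148 nt from NDUFAF8, fell by 0.51 (adjusted p 0.0266). WDR4, 76 nt from the outermost start of NDUFV3, rose by 0.51 (adjusted p 0.00553). That start, at 42879644, lies outside the NDUFV3 promoter window shown above (42893059 to 42893338), so WDR4 does not adjoin that window. Of these partners ESF1 and WDR4 passed the threshold in the same direction with either length and GC correction, while TEPSIN did not pass with the exonic (-0.21, adjusted p 0.331) or the principal transcript (-0.38, adjusted p 0.0826) correction. MRPL47 and ERCC8 were at 0.14 and 0.23 with the exonic correction, both higher, and at -0.06 and 0.07 with the principal transcript correction, neither past the threshold. For NDUFS6, not past the threshold, the partner MRPL36 rose by 0.57 (0.25 with the principal transcript correction, still higher), and for NDUFA11 the partner VMAC, 852 nt away, fell by 0.83. The partners of NDUFB1 (CPSF2, -0.02) and NDUFA9 (AKAP3, -0.29) did not pass.

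Motif letters in the promoter windows were compared with those of 15314 protein-coding promoters of the same length. The NRF1 motif, named for a factor known to drive respiratory genes, was in 9 of 39 member windows (23.1%) against 5.62% of all. The ETS motif was in 7 (17.9%) against 14.2%, the YY1 motif in 9 (23.1%) against 5.62%, the CCAAT box in 11 (28.2%) against 36% and the TATA box in 3 (7.69%) against 9.58%. In 8 members (NDUFA3, NDUFA7, NDUFA9, NDUFA12, NDUFAF8, NDUFB8, NDUFS4 and NDUFS7) the YY1 letters began 11 to 22 nt after the start, and in NDUFA5 they lay before it. The changes by motif are given without correction for length, where 31.3% of all genes tested were higher and 31.4% lower. Members with a YY1 match had a median log2 fold change of 0.52 (8 of 9 higher, 0 lower), and those without it 0.21 (19 of 30 higher, 2 lower). With the principal transcript correction NDUFA3, NDUFA9, NDUFAF8 and NDUFB8 of the matched members were still higher. NDUFA5, NDUFA7, NDUFA12, NDUFS4 and NDUFS7 were then not past the threshold. Members with an NRF1 match had a median of 0.15 (5 of 9 higher, 0 lower), and those without it 0.35 (22 of 30 higher, 2 lower). Members with a CCAAT box had a median of 0.35 (9 of 11 higher, 1 lower), and those without 0.22 (18 of 28 higher, 1 lower). For the ETS motif the medians were 0.24 with a match (5 of 7 higher, 0 lower) and 0.35 without, and for the TATA box 0.52 (3 of 3 higher) and 0.28. Longer forms, searched before these, gave 7 members for NRF1 (GCGCNTGCGC, 17.9% against 8.62%) and 2 for YY1 (AAGATGGCGGC, 5.13% against 0.96%, NDUFAF8 and NDUFA9). The longer NRF1 form turned the order of the medians, to 0.45 with a match and 0.33 without. None of these differences was tested.

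Among genes for regulators of respiratory genes, more were lower than higher. Of 11 tested, 3 were higher (31.3% of all genes tested), 6 lower (31.4%) and 2 not past the threshold, with a median of -0.19. Their principal transcripts had a median of 5120 nt, and of all genes of 3000 to under 6000 nt 39.6% were lower. PPRC1, a coactivator related to the PGC family, held 289.6, 426 and 366 normalised counts with DMSO and 94.9, 121 and 162 with IPI-9119 (log2 fold change -1.53, SE 0.19, adjusted p 2.4e-05). SP1 (-0.62) and YY1 (-0.48) also fell, and the nuclear receptor gene ESRRA (0.33), TFAM (0.22) and TFB2M (0.17) rose. The genes for the factors whose motifs were searched, NRF1 (-0.40, adjusted p 4.5e-04) and the GABP subunit GABPA (-0.23, adjusted p 0.0047), fell as well. NRF1, GABPA, TFAM and TFB2M were named after their values were seen. With the principal transcript correction PPRC1 was at -0.95, YY1 at -0.20 and GABPA at -0.39, all still lower. Of the genes that rose, ESRRA was then at 0.48, still higher, TFAM at 0.09, not past the threshold, and TFB2M at -0.16, lower. In the same libraries 32 of 47 NDUF members were higher and 3 lower without correction, and 18 were higher and 11 lower with that correction.

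Other assembly factors of complex I have no NDUFAF symbol. They gave 10 of 14 higher (31.3% of all genes tested), 0 lower (31.4%) and 4 not past the threshold (median 0.24). COA1 held 626, 603 and 644 normalised counts with DMSO and 1036, 963 and 1059 with IPI-9119 (log2 fold change 0.71, SE 0.07, adjusted p 5.9e-07). SFXN4 (0.54) and TMEM126B (0.53), which works with NDUFAF1, rose too. With the principal transcript correction this list gave 4 higher and 5 lower, with SFXN4 at 0.21, COA1 at 0.44 and TMEM126B at 0.05, the last not past the threshold. Iron-sulfur cluster assembly, which supplies the cofactors of the core subunits, gave 9 of 16 higher, 1 lower and 6 not past (median 0.22). BOLA3 (0.74), the ferredoxin gene FDX2 (0.63) and the glutaredoxin gene GLRX5 (0.56) rose, and the chaperone gene HSPA9 fell (-0.44). With that correction BOLA3 was at 0.41, FDX2 at 0.41 and GLRX5 at 0.31, still higher.

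The 7 core subunits encoded in mitochondrial DNA went both ways (median -0.11). Past the threshold, 2 were higher (31.3% of all genes tested) and 2 lower (31.4%), and 3 fell short of it. MT-ND3 held 16276, 15560 and 16327 normalised counts with DMSO and 28401, 23655 and 24785 with IPI-9119 (log2 fold change 0.67, SE 0.06, adjusted p 2.8e-07). MT-ND2 rose by 0.29, and MT-ND1 (-0.38) and MT-ND6 (-0.67, SE 0.11, adjusted p 3.2e-04) fell. MT-ND4 (-0.11), MT-ND4L (-0.04) and MT-ND5 (-0.36) did not pass the threshold. Their summed share was 0.401% ± 0.0379 of normalised counts with DMSO (SD, n = 3) and 0.425% ± 0.0521 with IPI-9119, a difference within the spread of the libraries. Several of these calls hung on 1 library. The call for MT-ND2 was lost on leaving out DMSO replicate 1 (adjusted p 0.0501), DMSO replicate 2 (0.0603) or IPI-9119 replicate 1 (0.109), and that for MT-ND1 on leaving out DMSO replicate 2 (0.0665). MT-ND5 gained one without DMSO replicate 1 (-0.50, adjusted p 0.0176) or IPI-9119 replicate 3 (-0.50, adjusted p 0.00654), and with edgeR on the recovered reads (-0.36, adjusted p 0.0189), but not with DESeq2 (adjusted p 0.142). With the exonic correction 1 was higher, MT-ND3 (0.53, adjusted p 1.6e-07), and 2 lower. With the principal transcript correction 0 were higher and 2 lower, and MT-ND3 was at -0.045, not past the threshold.

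Routes that feed ubiquinone beside complex I were measured for comparison. Complex II and its assembly gave 5 of 8 higher (31.3% of all genes tested), 0 lower (31.4%) and 3 not past the threshold (median 0.27). Its subunit genes SDHD (0.62), SDHB (0.56) and SDHC (0.47) rose. With the principal transcript correction this list gave 3 higher and 1 lower, with SDHD at 0.25, SDHB at 0.22 and SDHC at 0.79. Other routes of electron entry gave 3 of 7 higher, 2 lower and 2 not past (median -0.01). The sulfide oxidase gene SQOR held 248, 192 and 221 normalised counts with DMSO and 490.2, 410.1 and 438 with IPI-9119 (log2 fold change 1.02, SE 0.11, adjusted p 2.5e-06), and its groups were far apart. The mitochondrial glycerol phosphate dehydrogenase gene GPD2 (0.58) and the electron transfer flavoprotein gene ETFA (0.44) rose, and ETFB, the partner of ETFA, fell (-0.28). With that correction ETFA was at 0.17 and ETFB at -0.51, both past the threshold.

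Transcripts with an NDUF symbol that do not code for protein were left out of the 47. NDUFB2-AS1, on the opposite strand of NDUFB2, was low and fell (38.4, 29.3 and 30.3 normalised counts with DMSO, and 20.03, 18.5 and 16.5 with IPI-9119; log2 fold change -0.79, adjusted p 0.0179), while NDUFB2 rose. NDUFV2-AS1 (-0.41), the pseudogene NDUFV2P1 (0.29) and NDUFA6-DT (0.06) did not pass the threshold.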

How the data were processed

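RNA of C4-2 cells was measured in 3 IPI-9119 and 3 DMSO libraries. The deposited signal consists of gene counts scaled by the authors with 1 factor per library, since all values (100%) were whole multiples of what 1 read is worth within 0.01 read. STAR 2.5.2b, Subread 1.5.2, featureCounts, Trimmomatic 0.36, GRCh38 and DESeq2 are named without roles, per the submitters' processing notes. Neither annotation release nor strand setting was given in the sources used here.

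Genes with a mean of at least 10 were tested (14437 of 14456) by limma 3.58.1 (R 4.3.3; trend, robust moderation, two-sided) on log2(value + 1), a scale that understates changes of low genes. Benjamini-Hochberg adjusted p-values under 0.05 over all genes were called. The step was tested on simulated counts. No pair of replicates agreed within sampling noise (chi-square over degrees of freedom 2.29 to 9.56). The fixed rule gave libraries and full statistics for core, NDUFAF, lower and not-past members and the 8 largest accessory rises, and for other lists the 3 largest called changes and the largest the other way. Members and lists were chosen with earlier results of these data known.

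Symbols, positions and lengths came from GENCODE 29 on GRCh38 (14409 genes matched). Merged exonic length joins all exons of a gene, and the principal transcript is the one with the best APPRIS rank in that annotation. Where several shared that rank the longest was taken, and the lengths, levels per kilobase and corrections rest on that choice. Corrections subtracted, per library, a spline (4 degrees of freedom) of the log2 deviation on log2 length and GC content. Alternatives were other pseudocounts, filters and scalings, count tests on the recovered reads with edgeR 4.0.16 and DESeq2 1.42.0, a replicate block and leaving out each library. NDUFC2-KCTD14, a read-through gene, was not analysed here. Of the members, 1 is in the counts and medians but is not reported here or plotted.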

Additional observations from a re-analysis of the deposited data

How the results depend on the processing

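Counts of called NDUF members kept within 1.5 times of the reported 32 higher and 3 lower under other pseudocounts (0.5, 8) and filters (none, mean 50), TMM and quantile scaling, edgeR and DESeq2, and all 35 calls were shared with each of these. Without trend and robust moderation 33 of the 35 calls were shared, 1 accessory subunit was lower, and NDUFB10 (adjusted p 0.0829) and NDUFB4 (adjusted p 0.0641) lost their calls. Leaving out 1 library gave 31 to 33 higher members and 2 to 3 lower, and 1 to 2 lower accessory subunits. The 21 members without exon overlap held 13 higher, a smaller count by construction.

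The length and GC corrections changed most. With the exonic length 30 of the 35 calls were shared, 1 core subunit was lower, and NDUFB4 reversed (-0.10). With the principal transcript 20 were shared, the members' median was 0.085, and 18 were higher and 11 lower (core 2 and 2, accessory 11 and 6, 2 NDUFAF genes lower). Of the pathway genes 27 were higher and 27 lower, against 42 and 16 as reported. Under it 11 members turned sign, and 8 of them, past the threshold in at least 1 of the 2 fits, were NDUFB4 (-0.26), NDUFAF4 (-0.26), NDUFS6 (-0.20), NDUFA11 (-0.15), NDUFAF1 (-0.15), NDUFS8 (-0.13), NDUFS3 (-0.076) and NDUFB9 (-0.0027). The other 3, past it in neither, were NDUFAF7 (-0.12), NDUFB7 (-0.11) and NDUFC2 (-0.11). Of the pathway genes 22 turned sign, 17 of them past the threshold in at least 1 fit, among them MT-ND2 (-0.12) and MT-ND3 (-0.045); TMEM126A (0.21 to -0.31) and TFB2M (0.17 to -0.16) passed in both. The corrections were fitted on different sets of genes, 14386 and 12108. Members with the same length by both measures also differed between them. With the exonic and principal corrections NDUFA1 (766 nt) was at 0.71 and 0.50, and NDUFS5 (548 nt) at 0.46 and 0.23. NDUFA8 (844 nt) was at -0.12 and -0.34, and NDUFB7 (531 nt) at 0.04 and -0.11. The cause of the gap between the corrections was not tested.

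Replicate numbers were not shown to pair the libraries: same-numbered DMSO and IPI-9119 libraries had correlations of their deviations of 0.141, 0.0634 and 0.00443, and DMSO replicate 2 correlated best with IPI-9119 replicate 3 (0.0985). The replicate block shared all 35 calls and added NDUFB7 (adjusted p 0.0143), NDUFS6 (0.0372) and NDUFS7 (0.0334), so 35 members were higher and 3 lower. The block with the exonic correction gave 6 lower members, 4 of them accessory and 1 core, and 27 lower pathway genes, with NDUFB4 at -0.10. The block with the principal transcript gave 21 higher and 12 lower members (accessory 13 and 7, core 2 lower, NDUFAF 2 lower) and 32 lower pathway genes, a median of 0.085, and the same turns of sign, with NDUFB7 now past the threshold (-0.11). The block alone also put MT-ND5 (-0.36, adjusted p 9.0e-08) and MT-ND4 (-0.11, adjusted p 0.0179) past the threshold as lower. Precision is limited by 3 libraries per group and, for the least abundant members, by depth.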

Other observations

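Genes listed as markers of mitochondrial mass, which was not measured, were mostly higher with IPI-9119 before correction for length. Of 12 such genes 8 were higher (31.3% of all genes tested), 2 lower (31.4%) and 2 not past the threshold (limma). Their median log2 fold change was 0.27. TOMM22, an import receptor of the outer membrane, held 2943, 2795 and 3203 normalised counts with DMSO and 4565, 4004 and 3929.6 with IPI-9119 (log2 fold change 0.48, SE 0.06, adjusted p 1.7e-05). TOMM20 (0.40), another import receptor, and the porin gene VDAC3 (0.39) rose with groups that did not overlap. The import channel gene TOMM40 fell (-0.26, adjusted p 0.0375), with overlapping groups, and its call was lost when any 1 library other than IPI-9119 replicate 3 was left out (adjusted p 0.0523 to 0.182). With the principal transcript correction this list gave 4 higher and 3 lower, with a median of -0.0073. VDAC3 was then at 0.01, TOMM22 at 0.21 and TOMM20 at 0.19.

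Genes of mitochondrial proteases and their partners went both ways. Of 8, 2 were higher (31.3% of all genes tested), 3 lower (31.4%) and 3 not past the threshold (median 0.05). LONP1, the main protease of the matrix, held 4915, 4955 and 4617 normalised counts with DMSO and 2162, 2405 and 2517 with IPI-9119, with every IPI-9119 library below every DMSO library (log2 fold change -1.03, SE 0.06, adjusted p 2.9e-09). With the exonic and principal transcript corrections it was still lower, at -0.55 and -0.62. SPG7 (0.53, and 1.5 and 0.82 with these corrections) and HTRA2 (0.45) rose. Without correction LONP1 moved against most NDUF members, of which 32 of 47 were higher. With the principal transcript correction 18 members were higher and 11 lower. The relation of LONP1 to the NDUF members was not tested.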
